A study of Ostrinia furnacalis with 9 samples.

Results

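In heads of Ostrinia furnacalis larvae, 611 of 10958 places with a histone methylation peak had both H3K9me3 and H3K27me3 at non-diapause and pre-diapause. None of the 611 had a listed peak of either mark at diapause. Ostrinia furnacalis is the Asian corn borer, a moth whose larvae can arrest development in diapause. A place is a stretch made by joining all peaks of the 6 deposited peak lists that shared at least 1 bp, with the only sequence that is not a scaffold left out. To be counted, a place needed a peak of both marks in non-diapause heads, a peak of both marks in pre-diapause heads, and no peak in either diapause list. These 611 are called early-only places here, with early used for non-diapause and pre-diapause together. The word is a label, since non-diapause larvae are not known to be an earlier step towards diapause. The 611 make up 5.58% (5.15–6.02) of all places. Their presence in the early lists and absence from the diapause lists were fixed by this choice and are not results.

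The stock came from field-collected larvae reared on artificial diet at 27 °C on a light cycle of 16 h light to 8 h dark. Larvae that had just moulted to the fourth instar were moved to 20 °C and a cycle of 12 h light to 12 h dark. They were taken as pre-diapause after 20 days and as diapause after 30 days or more. How the non-diapause larvae were reared apart from the stock is not stated, so against them stage, age, temperature and day length cannot be told apart. Pre-diapause and diapause larvae shared the 20 °C hold and its light cycle. Between them, stage and time under the hold cannot be told apart. Whole heads were used, which hold brain, muscle, cuticle and other tissues, and the number of heads in a sample is not given in the sources used here. With 1 peak list for every mark and stage there is no replicate spread to judge a difference by, so the text holds no test and no p-value. Intervals in brackets are 95% intervals, exact binomial for shares and by order statistics for medians. They cover counting error only and treat neighbouring places as independent.

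H3K9me3 is laid down by methyltransferases of the Su(var)3-9 and SETDB1 type and is bound by heterochromatin protein HP1. It is known from silent repeats and transposons. H3K27me3 is laid down by Polycomb repressive complex 2, whose catalytic subunit is Enhancer of zeste, and is known from developmental genes kept off. The marks are usually described as belonging to separate kinds of silent chromatin. Genes and sequence at these places were not analysed here.

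Of the 2612 places with both marks at both early stages, 611 had no diapause peak, which is 23.4% (21.8–25.1). Another 603 (23.1%, 21.5–24.8) had H3K27me3 alone at diapause. H3K9me3 alone was called at 193 (7.39%, 6.41–8.46), and both marks were called at 1205 (46.1%, 44.2–48.1). Places with both marks early and 1 mark called at diapause thus more often had H3K27me3 than H3K9me3, in lists of 3812 and 3504 diapause peaks. As the background to these counts, 55.2% of all 9936 places with any early peak had no diapause peak. The share was 47.2% of 354 places that had H3K9me3 at both early stages and no early H3K27me3. It was 34.8% of 362 places with the reverse, H3K27me3 without H3K9me3. Places with both marks at a single early stage were uncalled at diapause in 65.5% of 55 cases for non-diapause and 66.8% of 813 cases for pre-diapause. The 23.4% of the places with both marks at both stages is the lowest of these shares. The choice of places used the diapause lists, so nothing is read from that order.

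The strongest early-only places, ranked by the lowest fold over the 4 early lists, were single peaks at most 837 bp wide, which the 4 lists placed alike in most of the first 10. Fold is the authors' enrichment of the immunoprecipitated library over background in a peak. Lists do not share a scale, and the lowest fold is taken across them all the same. This ranking thus depends on the scales of the lists. First was scaffold NW_021131933.1 at 124447–124996, 550 bp wide. At non-diapause its H3K9me3 fold was 13.1 and its H3K27me3 fold 11.7, and at pre-diapause they were 15.3 and 14.6. The −log10 q of these 4 peaks lay between 100.9 and 129.6, against 52.4 to 65.1 in the place ranked next. The gap from it to the nearest diapause peak was 5650 bp.

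The next places fell off quickly. NW_021131648.1 at 425755–426359 had H3K9me3 folds of 11.9 and 11.9 and H3K27me3 folds of 10.3 and 12.1 at non-diapause and pre-diapause. NW_021137822.1 at 33736–34572 had H3K9me3 folds of 12.0 and 13.2 and H3K27me3 folds of 11.2 and 8.96. In this place the pre-diapause H3K27me3 peak was 837 bp wide and reached well beyond the other 3, which were 472 to 485 bp wide. NW_021136315.1 at 85967–86492 had H3K9me3 folds of 8.85 and 9.95 and H3K27me3 folds of 8.89 and 10.1. From NW_021135358.1 at 51934–52515 onward the lowest fold was under 8. That place had H3K9me3 folds of 8.46 and 9.38 and H3K27me3 folds of 7.91 and 9.05.

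The remaining 5 of the first 10 had a lowest fold between 6.61 and 7.13. They were NW_021134758.1 at 465912–466391, NW_021131643.1 at 98829–99494, NW_021135355.1 at 162852–163530, NW_021131322.1 at 270868–271412 and NW_021131590.1 at 327528–328331. At NW_021131643.1 H3K27me3 had a fold of 7.09 at non-diapause and 10.2 at pre-diapause, and H3K9me3 7.65 and 9.42. At NW_021131322.1 the H3K9me3 fold was 7.16 and 6.62 and the H3K27me3 fold 6.99 and 7.58. The last of them, on NW_021131590.1, was the second place where 1 list stood apart. Its pre-diapause H3K9me3 peak was 800 bp wide, while the other 3 were 416 to 457 bp wide. The nearest diapause peak lay between 4604 and 112434 bp away from these 10 places.

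**Figure D1:**
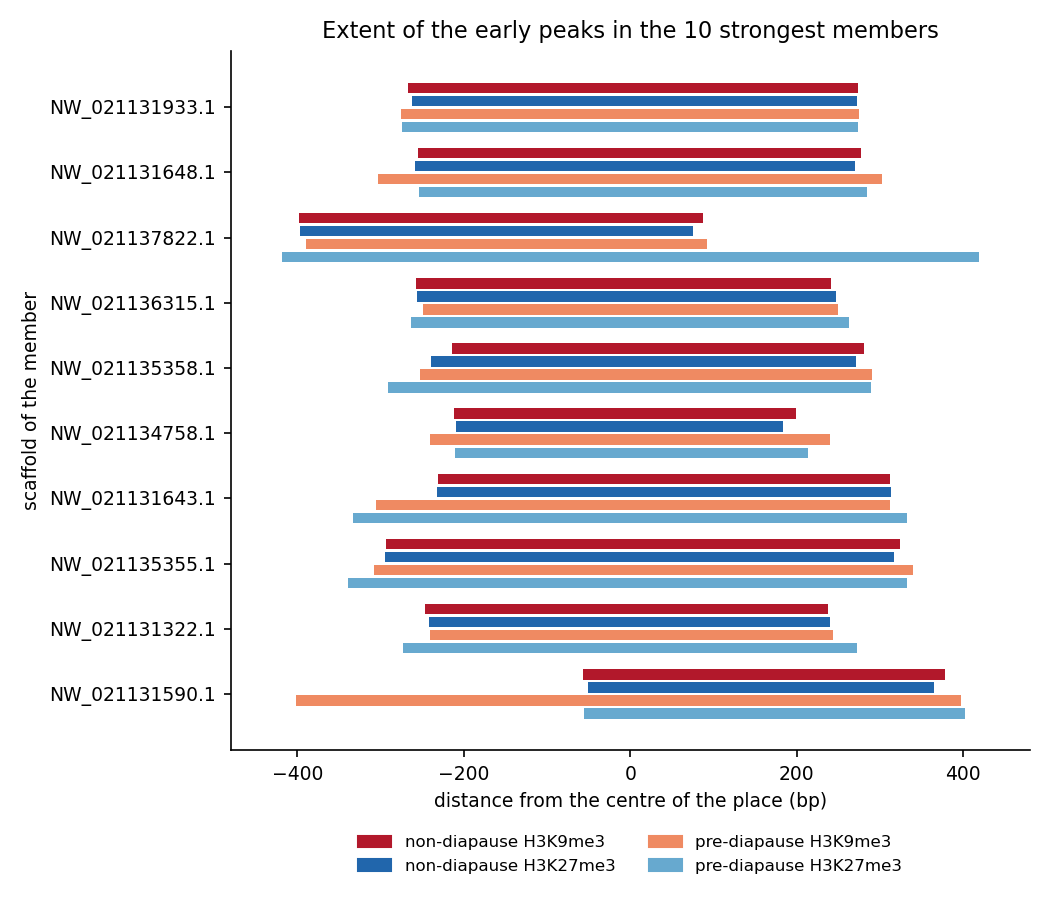
Extent of the peaks of the 4 early lists in the 10 strongest early-only places, drawn as bars against the distance in bp from the centre of each place, 1 row of 4 bars for each scaffold. Within a place the bars overlap closely, with left or right edges at most 102 bp apart, except for the 837 bp pre-diapause H3K27me3 peak on NW_021137822.1 and the 800 bp pre-diapause H3K9me3 peak on NW_021131590.1.

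Most early-only places were of middling strength. Their median fold was 3.58 (3.42–3.68) for H3K9me3 and 3.37 (3.28–3.47) for H3K27me3 at non-diapause. At pre-diapause it was 4.04 (3.91–4.17) and 3.87 (3.70–4.01). The medians of the whole lists were 3.40, 3.25, 3.33 and 3.31 in the same order, so early-only places sat above the middle of every early list. The rule asks for a peak in all 4 early lists, so this standing is tied to the choice of places. Places with H3K27me3 alone or both marks at diapause had higher median folds in all 4 lists, and those with H3K9me3 alone lower ones. By −log10 q the peaks of early-only places stood at the median percentile 56.1 and 56.9 of the non-diapause H3K9me3 and H3K27me3 lists. In the pre-diapause lists, which are longer, they stood at 64.5 and 68.4. They supplied 13.7 and 16.4% of the peaks of the non-diapause lists and 8.51 and 9.44% of the pre-diapause lists.

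Strong members were few but present. A fold of at least 5 in all 4 lists was found in 41 early-only places (6.71%, 4.86–8.99). Of the places with H3K27me3 alone at diapause 69 (11.4%, 9.01–14.3) had it, of those with H3K9me3 alone 6 (3.11%, 1.15–6.64), and of those with both marks 181 (15.0%, 13.0–17.2). At the other end, 66 early-only places (10.8%, 8.45–13.5) had a −log10 q under 3 in some early list. The median of the lowest −log10 q over the 4 lists was 5.71 (5.42–6.20) in early-only places, 6.39 (6.14–6.74) with H3K27me3 alone at diapause, 5.13 (4.61–5.57) with H3K9me3 alone and 7.89 (7.56–8.29) with both. By this measure early-only places were below the places with both marks at diapause, and their interval overlapped those of the other 2 sets. By fold they were below the places with H3K27me3 alone as well. Their median lowest fold was 3.19 (3.10–3.30) against 3.49 (3.37–3.59). The intervals of the median fold overlapped for pre-diapause H3K9me3 and were apart in the remaining early lists. Against H3K9me3-alone places the order depended on the measure. Non-diapause fold was higher in early-only places for H3K27me3, with a median of 3.37 against 3.01 (2.87–3.07), and for H3K9me3 the medians of 3.58 and 3.30 (3.18–3.46) had overlapping intervals. The −log10 q of pre-diapause H3K9me3 was lower in early-only places, with a median of 8.45 (8.05–8.92) against 11.7 (9.80–13.8), and at non-diapause it was 7.03 (6.72–7.64) against 7.16 (6.49–7.87).

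**Figure D2:**
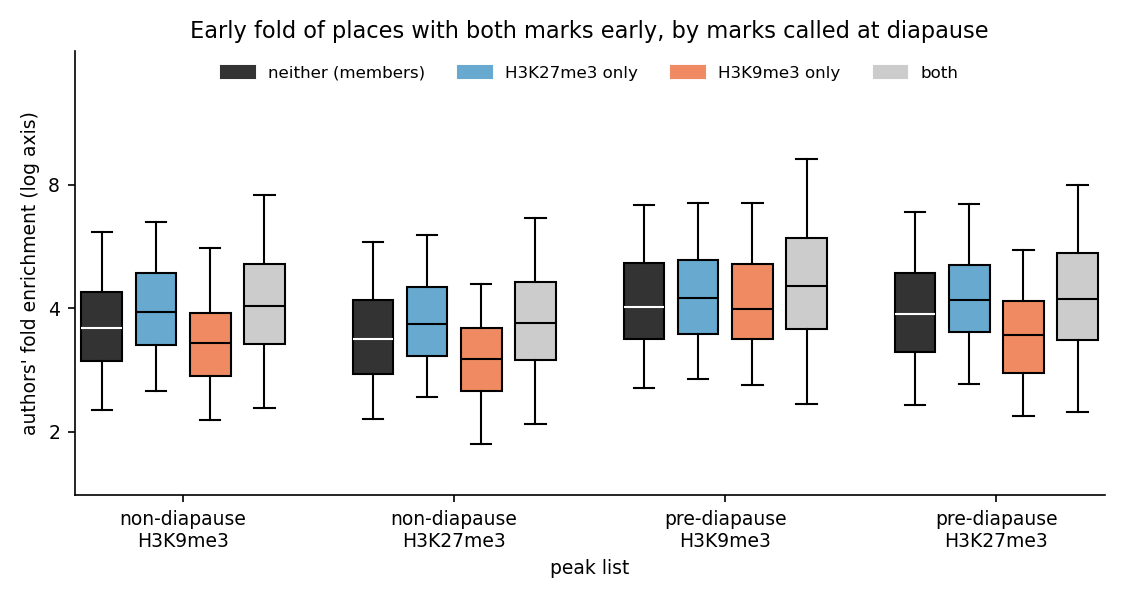
Authors' fold enrichment in each early list (log axis) for the places with both marks early, grouped by the marks called at diapause. Boxes span the quartiles with the median line, and whiskers run from the 5th to the 95th percentile of places. Early-only places have medians between 3.37 and 4.04, below those of places with both marks at diapause in all 4 lists.

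The share of places that went uncalled at diapause fell with early strength, and did not reach 0. The 2612 places were split into 10 parts of nearly equal size by their lowest early −log10 q. In the weakest part 102 of 262 places (38.9%, 33.0–45.1) were early-only. Parts 3 to 7, with a lowest −log10 q between 4.01 and 9.64, had shares from 23.0 to 24.4%, all within each other's intervals. In the strongest part, above 17.4, 27 of 261 places (10.3%, 6.93–14.7) were early-only, while 183 (70.1%, 64.2–75.6) had both marks at diapause. H3K27me3 alone was called in 14.6% (10.5–19.4) of the strongest part and 21.0% (16.2–26.4) of the weakest, and H3K9me3 alone in 4.98% (2.68–8.37) and 11.8% (8.18–16.4). With lists of equal length the share in the weakest part was 21.6% (15.8–28.4) and in the strongest 8.57% (4.88–13.7). Over all 1751 places with both marks early in those lists it was 20.3% (18.4–22.2), so the weakest part no longer stood apart.

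**Figure D3:**
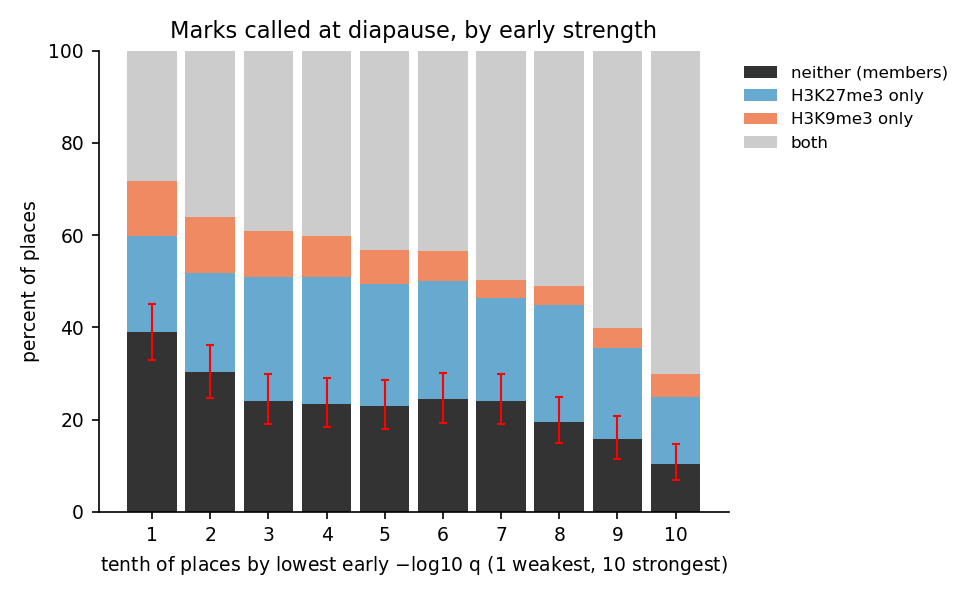
Percent of the places with both marks early that had neither mark, H3K27me3 only, H3K9me3 only or both at diapause, in 10 parts by the lowest early −log10 q (1 weakest, 10 strongest). Red bars are exact binomial 95% intervals of the share with neither, which runs from 38.9% in part 1 to 10.3% in part 10.

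The median width of early-only places was 661 bp (607–704), and 23 (3.76%, 2.40–5.59) were wider than 2000 bp. At the median they were narrower than places with H3K9me3 alone or both marks at diapause. Against places with H3K27me3 alone the intervals overlapped. Counted on early peaks alone, so that diapause peaks add no bases, the median was 661 bp for early-only places and 705 (664–754) for places with H3K27me3 alone at diapause. It was 915 (840–1000) for places with H3K9me3 alone and 929 (882–966) for places with both. A wider place has more bases in which a diapause peak can fall, so width and the choice of places are tied by construction. The tie was not the same at all strengths. Among the 1306 stronger places, 142 of the 436 narrowest (32.6%, 28.2–37.2) were early-only, against 79 of 435 of middle width (18.2%, 14.7–22.1) and 25 of the 435 widest (5.75%, 3.75–8.37). Among the 1306 weaker places the shares were 32.6% (28.2–37.2), 26.0% (21.9–30.4) and 25.3% (21.3–29.6). Strong and wide places were thus rarely early-only, while the narrowest of the strong places, 327 to 585 bp, were so as often as the narrowest of the weak ones, 350 to 649 bp. With lists of equal length the share among the strong and widest was 2.74% (1.19–5.33).

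**Figure D4:**
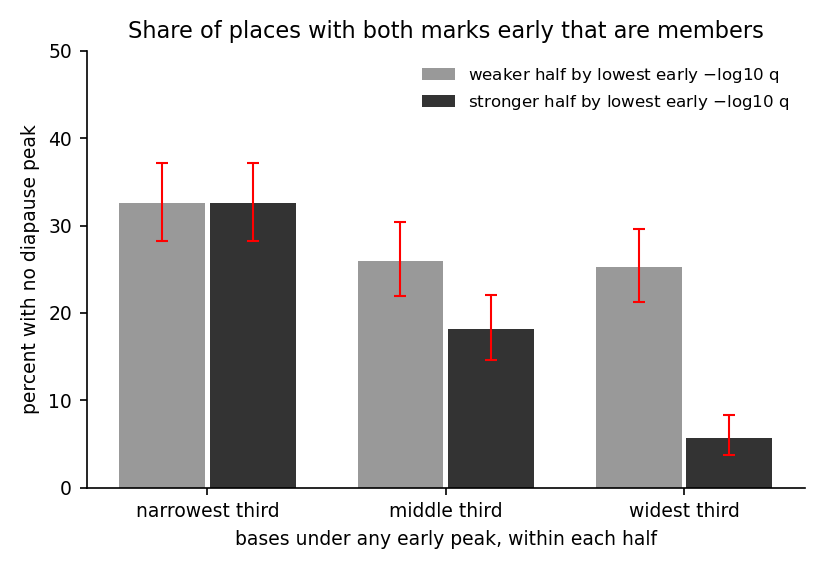
Percent of places with both marks early that had no diapause peak, by bases under any early peak (narrowest, middle, widest) and by early strength (grey weaker, black stronger), with exact binomial 95% intervals in red. In the stronger places the share runs from 32.6% in the narrowest to 5.75% in the widest.

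The 5 widest early-only places had lowest folds from 1.85 to 2.95, and in 3 of them a short H3K27me3 peak met far longer H3K9me3 peaks at non-diapause. NW_021131650.1 at 312313–316461 spanned 4149 bp, with H3K9me3 folds of 3.39 and 3.89 and H3K27me3 folds of 2.95 and 2.96 at non-diapause and pre-diapause. At non-diapause its H3K27me3 peak was 599 bp and its H3K9me3 peak 3019 bp long, and the marks shared 19.8% of their bases. NW_021130637.1 at 665858–669904 had H3K9me3 folds of 2.52 and 3.66 and H3K27me3 folds of 2.33 and 2.38, and at non-diapause its marks covered 3124 bp for H3K9me3 and 545 bp for H3K27me3 and shared 15.7% of their bases. NW_021137654.1 at 429282–432731 had 1518 and 517 bp and shared 34.1%, with a lowest fold of 2.34. The remaining 2, NW_021137587.1 at 567176–570794 and NW_021137579.1 at 95764–99363, had marks that shared 76.8 and 98.0% at non-diapause. Their lowest folds were 1.85 and 2.23.

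Both marks occupied nearly the same bases in a typical early-only place. The bases under both marks, as a share of the bases under either, had a median of 84.5% (83.2–85.8) at non-diapause and 84.1% (82.6–85.5) at pre-diapause. Between the early stages of 1 mark the median was 80.0% (78.3–82.0) for H3K9me3 and 81.5% (80.0–82.7) for H3K27me3. A total of 597 places (97.7%) had exactly 1 peak in each early list, and in these the edges of the H3K9me3 and H3K27me3 peaks lay a median of 32 bp apart at non-diapause and 39 bp at pre-diapause. Both edges were within 50 bp in 268 of them (44.9%, 40.9–49.0) at non-diapause and 235 (39.4%, 35.4–43.4) at pre-diapause. In the 609 places that had a base under all 4 lists (99.7%, 98.8–99.96) the early peaks met at a common stretch, and over all 611 places this stretch had a median of 368 bp (361–377). The exceptions, named after their values were seen, were NW_021130686.1 at 486867–490009 and NW_021135000.1 at 60540–62389. At the former the marks shared 0% of their bases at non-diapause.

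Marks also coincided in the other places with both marks early. The share of bases under both marks was 85.7% (84.3–87.0), 80.6% (78.3–84.4) and 87.5% (86.2–88.4) at non-diapause in places with H3K27me3 alone, H3K9me3 alone and both at diapause. Places with H3K9me3 alone had the least exact edges at pre-diapause, a median of 56.5 bp apart, against 37 and 38 bp in the other 2 sets.

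The folds of the marks varied together across early-only places. Over the 611 places, Pearson's r of log2 fold between H3K9me3 and H3K27me3 came to 0.92 in non-diapause and 0.85 in pre-diapause heads, and Spearman's rho was 0.90 and 0.83. Between the stages of the same mark r was 0.73 for H3K9me3 and 0.77 for H3K27me3. Different marks at different stages gave 0.76 and 0.69. The place-to-place order thus followed the stage more closely than the antibody. These are correlations across places on the same scaffolds. Whether the libraries of a stage came from the same heads is not stated, and they may share chromatin or background. The correlations describe the lists and carry no p-value. In places with both marks at diapause, r between the early stages was higher, 0.86 for H3K9me3 and 0.89 for H3K27me3. The spread of folds is wider in those places, and the difference was not tested.

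H3K9me3 fold was above H3K27me3 fold in 425 early-only places (69.6%, 65.7–73.2) at non-diapause and 372 (60.9%, 56.9–64.8) at pre-diapause. The sides were uneven in the other sets too, with 72.1, 79.8 and 79.3% at non-diapause for H3K27me3 alone, H3K9me3 alone and both. Folds of lists are not on 1 scale, so these counts rank the sets and not the marks. Among the 108 early-only places with a −log10 q of at least 10 in all 4 lists, the ratio of H3K9me3 to H3K27me3 fold at non-diapause was highest at the very start of scaffold NW_021131367.1, at 1–329. Its H3K9me3 folds were 8.23 and 9.88 and its H3K27me3 folds 4.88 and 5.11. NW_021130637.1 at 391159–391771 had 5.52 and 11.7 for H3K9me3 against 3.95 and 6.31. NW_021131843.1 at 2873–3353 had 6.11 and 8.54 against 4.44 and 6.12. At pre-diapause the H3K9me3 fold was again the higher in all 3.

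At the other end of this ranking, NW_021134191.1 at 314895–315423 had an H3K9me3 fold of 4.80 and an H3K27me3 fold of 6.36 at non-diapause, and 7.08 and 4.65 at pre-diapause, so the order of the folds differed between the stages. NW_021131783.1 at 48–540 differed too, with 4.80 and 5.68 and then 6.51 and 5.60. NW_021132815.1 at 656750–657251 had H3K27me3 higher at both stages, with 4.91 and 6.01 and then 5.47 and 7.01. The highest single fold of any early-only place, chosen after values were seen, was 17.8 for H3K9me3 at pre-diapause on NW_021134144.1 at 486505–487610. The H3K27me3 fold there was 11.1 at pre-diapause, and the non-diapause folds were 5.60 for H3K9me3 and 4.34 for H3K27me3. Its lowest fold, 4.34, kept it out of the strongest places named above. Folds of lists do not share a scale, so these orders are of listed values and do not rank the marks or stages.

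**Figure D5:**
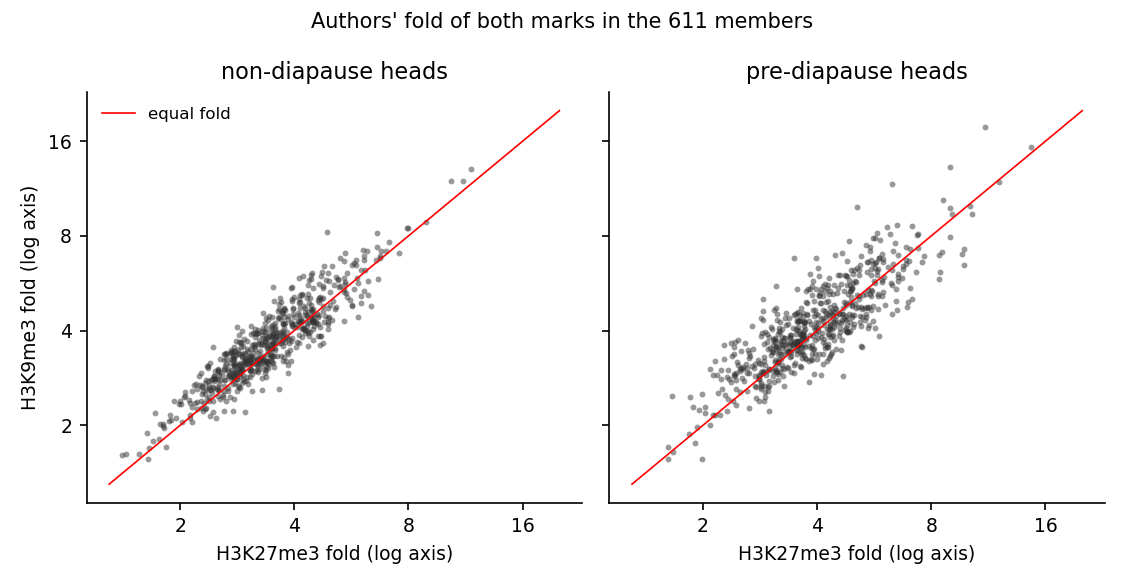
Authors' H3K9me3 fold against H3K27me3 fold (log axes) in the 611 early-only places, non-diapause heads left and pre-diapause heads right, 1 point for each place, with the line of equal fold. The cloud is tighter at non-diapause (r = 0.92) than at pre-diapause (r = 0.85).

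Pre-diapause peaks were usually the wider ones. In early-only places the pre-diapause peaks covered more bases than the non-diapause peaks in 405 places (66.3%, 62.4–70.0) for H3K9me3 and in 484 (79.2%, 75.8–82.4) for H3K27me3. For H3K9me3 the median width was 465 bp in non-diapause and 538 bp in pre-diapause heads, and for H3K27me3 it was 427 and 536 bp. In places with both marks at diapause the shares were 67.8% (65.1–70.4) and 84.2% (82.1–86.2). The depth of the libraries is unknown, and its part in peak width was not tested.

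Most early-only places shared a scaffold with places called at diapause. For 555 of the 611 the scaffold had a diapause peak elsewhere, at a median gap of 28482 bp (24266–31956). For places with both marks at diapause the gap to the nearest diapause peak outside the place was 23033 bp (20963–25411), and with H3K27me3 alone 23093 bp (20078–25677). With H3K9me3 alone it was 25043 bp (17587–30764). A diapause peak within 1000 bp was found for 5 early-only places (0.82%, 0.27–1.90). The share was 1.33% (0.57–2.60) for H3K27me3 alone, 4.66% (2.15–8.67) for H3K9me3 alone and 2.41% (1.62–3.44) for both. Within 10000 bp one was found for 125 early-only places (20.5%, 17.3–23.9). The other shares were 26.2% (22.7–29.9), 28.0% (21.8–34.9) and 24.7% (22.3–27.3) in the same order. Early-only places thus had the lowest share at both distances. Their interval overlapped every other at 10000 bp, and at 1000 bp every other but that of H3K9me3 alone. The choice of places used the diapause lists, so nothing is read from this order of gaps and shares. The nearest cases were NW_021133063.1 at 67590–67986, NW_021133067.1 at 1584–1974 and NW_021135154.1 at 875875–876291, with gaps of 694, 748 and 761 bp. The first of them had H3K9me3 folds of 5.21 and 6.32 and H3K27me3 folds of 4.19 and 5.10. This place with clear early peaks had no diapause call, while a diapause peak lay 694 bp away. Farthest were NW_021137881.1 at 444140–444612, NW_021130933.1 at 1885460–1885848 and NW_021131234.1 at 649795–651441, with gaps of 463909, 409094 and 343344 bp. The remaining 56 places were on 50 scaffolds with no diapause peak at all.

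Early-only places lay on 422 scaffolds, and 296 of the places (48.4%, 44.4–52.5) were the only one on theirs. The corresponding share was 47.8% (43.7–51.8) for 603 places with H3K27me3 alone at diapause 71.0% (64.0–77.3) for the 193 with H3K9me3 alone and 29.2% (26.7–31.9) for the 1205 with both. A larger set puts a smaller share of its places alone by construction. For 130 of the 518 early-only places that had another place with both marks early on their scaffold (25.1%, 21.4–29.1), the nearest such place was early-only too. For places with both marks at diapause this was 218 of 1033 (21.1%, 18.7–23.7). With H3K27me3 alone it was 118 of 519 (22.7%, 19.2–26.6), and with H3K9me3 alone 39 of 172 (22.7%, 16.6–29.7). These shares lie near the 23.4% of all 2612 places with both marks early that were early-only. Where the nearest such place was within 10000 bp, the share was 32 of 97 (33.0%, 23.8–43.3) for early-only places. It was 37 of 174 (21.3%, 15.4–28.1) with both marks at diapause. With H3K27me3 alone it was 21 of 93 (22.6%, 14.6–32.4), and with H3K9me3 alone 9 of 40 (22.5%, 10.8–38.5). All these intervals overlapped. Near pairs of early-only places count from both sides.

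The scaffold with the most early-only places, NW_021130455.1, had 6, spread over 1599 kb between 141725 and 1741142 and interspersed with places called at diapause. It held 13 places with both marks early and 39 places in all. The strongest of the 6, at 1579594–1579965, had H3K9me3 folds of 5.19 and 4.82 and H3K27me3 folds of 6.25 and 6.05. A neighbour 3417 bp away, at 1575640–1576176, had early folds of 6.14 and 6.30 for H3K9me3 and 5.59 and 6.13 for H3K27me3, and both marks were called there at diapause, with folds of 3.24 and 4.20. These neighbours of like early strength had opposite calls at diapause. The place at 202200–202996 had H3K9me3 folds of 3.15 and 6.35 and H3K27me3 folds of 2.79 and 4.01. Those at 141725–142197, 286582–287403, 1263639–1265837 and 1740619–1741142 had lowest folds between 2.51 and 3.49. Of 245 scaffolds with at least 4 places with both marks early, 1 had only early-only places, and 64 had none. The former, NW_021137947.1, named after its values were seen, had 4, at 326989–328084, 362646–363765, 610721–611949 and 809276–810869. They were weak, with lowest folds between 2.01 and 3.20, and the scaffold held 12 diapause peaks elsewhere. Early-only places were 23.4% of all places with both marks early, and the number of such scaffolds at that share was not worked out.

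The threshold of the rule is the calling of a peak, at a −log10 q of about 2.01 in these lists. Just inside were NW_021131473.1 at 133580–134366, NW_021136462.1 at 49574–51131 and NW_021135000.1 at 60540–62389, each with a lowest early −log10 q between 2.18 and 2.21. Just outside were places whose only diapause peak was as weak. NW_021134484.1 at 1247816–1249367 and NW_021133372.1 at 175801–176510 had a diapause H3K27me3 peak with a −log10 q of 2.11 and 2.16, and NW_021137351.1 at 170668–171507 a diapause H3K9me3 peak with 2.16. The second of these had early folds from 3.72 to 5.33, above the median of the early-only places in 3 of the 4 lists. Lack of a diapause peak means only that the authors' caller listed none, and a weaker signal of either mark may remain at these places.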

How the data were processed

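ChIP-seq of H3K9me3 and H3K27me3 gave 6 deposited broad-peak lists, and 3 input samples had no list used here. Titles gave stage and mark. The submitters' processing notes name Bowtie2, Picard, MACS2, deepTools and ChIPseeker, without versions. The genome build, the background library and any pooling are not given in the sources used here. The lists have no header and were read as the broad-peak layout. The deposited fold is the authors' ratio over background for each peak, and the −log10 q, −log10 p and score (10 times −log10 q) columns were deposited as the authors' caller wrote them. Only fold and −log10 q were used. Lists do not share a scale, yet some measures compared values across lists. The lowest fold and lowest −log10 q over the early lists ranked places and set the parts by strength. Folds of the marks were compared as ratios and as counts of the higher mark. These measures depend on the scales of the lists. Where a list had several peaks in a place, that of highest −log10 q gave its values.

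Places were built with scipy 1.17.1, pandas 2.3.3 and numpy 2.4.6 under Python 3.11.15, and figures with matplotlib 3.10.9. The joining was tested on simulated lists. Places were named by rules on lowest fold, width, balance of marks, distance to a diapause peak, number on a scaffold and nearness to the threshold. Places, rules and comparisons were chosen with earlier results of these data known. Read totals are not part of peak lists, so depth is unknown. Positions are 1-based. The gene table used here places no gene on a named scaffold.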

Additional observations from a re-analysis of the deposited data

How the results depend on the processing

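No paired analysis was possible because each mark and stage had 1 list. The 8 alternatives were a minimum −log10 q of 3 in all lists or in the early lists, lists of equal length (the 3504 strongest peaks of each), joining at 50% of the shorter peak, a base shared by all 4 early lists, no diapause peak within 1000 bp, joining across gaps of up to 500 bp, and keeping the left-out sequence. Over 8 results, 57 values stayed within 1.5 times the main count or within its 95% interval and 7 moved. The shares in the weakest and strongest parts and in the narrowest and widest places were added after seeing the data. Lists of equal length gave 355 early-only places in place of 611, which was 20.3% of 1751 places with both marks early. Their median width was 568 bp, and 66.8% were alone on their scaffold. In these lists 21.6% of the weakest of 10 parts and 2.74% of the strong and widest places were early-only. Shorter lists hold fewer places by construction, and 349 of the 611 shared a base with an early-only place there. With a −log10 q of at least 3 in all lists the share of places with both marks early that had no diapause peak was 25.3%. The number of early-only places was then 616, of which 545 were among the original 611 and the rest had had a weaker diapause peak.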

Other observations

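Among early-only places 19 of the 611 (3.11%, 1.88–4.81) started in the first 1000 bp of their scaffold, against 27 of 1205 (2.24%, 1.48–3.24) with both marks at diapause. With H3K27me3 alone it was 21 of 603 (3.48%, 2.17–5.27), and with H3K9me3 alone 2 of 193 (1.04%, 0.13–3.69). More than 1 peak of a list was found in 14 early-only places (2.29%, 1.26–3.81), and 2 of these held 7 peaks. Of the 583 early-only places with any other place on the scaffold, the nearest one had both marks at some stage in 328 cases (56.3%, 52.1–60.3), H3K9me3 only in 168 (28.8%, 25.2–32.7) and H3K27me3 only in 87 (14.9%, 12.1–18.1). Over all 583 the median gap to the nearest place was 12652 bp, and that place had a diapause peak in 272 cases (46.7%, 42.5–50.8). This share is close to that over all places, of which 5482 of 10958 had no diapause peak. The marks of the nearest place were not compared with those of all places, so nothing is read from their shares. The remaining 28 early-only places were the only place on their scaffold.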
